A study of Mus musculus with 2 samples.

Results

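Clusters 1, 3, 4, 6 and 10 of the deposited clustering are the neutrophil clusters among CD11b+Ly6G+ cells sorted from subcutaneous Lewis lung carcinoma (LLC) tumors. They were taken by their number from a deposited table that gives the average of each gene in each of 13 clusters, and they held 3033 of 6630 cells (45.7%). The genes given as their markers were S100a8, S100a9, Csf3r, Tnf and Cxcr2. LLC is a mouse lung carcinoma line that grows as a tumor under the skin of C57BL/6 mice.

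Both libraries came from C57BL/6 mice (C57BL/6 J background for both genotypes in the study's methods) of 8 to 12 weeks that carried LLC tumors. For each genotype the cells of 8 tumors were pooled into 1 library made with a 5′ kit. The Smad3-WT library was from Smad3+/+ mice. The Smad3-KO library was from Smad3-/- mice, in which exon 8 of Smad3 is deleted and exon 7 is disrupted in all cells, so that the tumor stroma lacked Smad3 as well as the neutrophils. With 1 library per genotype there was no replicate, no test of genotype could be made, and every interval below covers counting error only, at the 95% level.

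Neutrophils are short-lived granulocytes that leave the bone marrow, follow chemokines into tissue through receptors such as CXCR2, and kill microbes with oxidants and with proteins stored in granules. Granule proteins are transcribed in order during maturation in the marrow, and their mRNA is low in circulating and tissue cells. Neutrophils in tissue transcribe cytokines, chemokines and survival factors instead, many of them through the transcription factor NF-kB, whose inhibitors Nfkbia and Tnfaip3 are among its own targets. Tumor-associated neutrophils (TANs) are described as N1 when they carry markers such as Tnf, Icam1 and Fas, and as N2 when they carry markers such as Ccl2. Smad3 transmits signals of TGF-beta.

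The Smad3-WT library placed 1912 of its 4116 cells in these clusters (46.5%), and the Smad3-KO library placed 1121 of its 2514 cells there (44.6%). The 2 libraries filled the 5 clusters unequally. Smad3-KO cells made up 94.8% of cluster 3 (632 of 667 cells, exact Clopper-Pearson interval 92.8% to 96.3%) and 253 of the 665 cells of cluster 4 (interval 34.3% to 41.9%). In cluster 1 they were 14.5% (110 of 758 cells, 12.1% to 17.2%), in cluster 6 they were 13.8% (85 of 615 cells, 11.2% to 16.8%) and in cluster 10 they were 12.5% (41 of 328 cells, 9.12% to 16.6%). A contrast of cluster 3 with cluster 1, 6 or 10 is therefore largely a contrast of the 2 libraries. This holds less for cluster 4, where Smad3-KO cells gave 50.9% of the UMIs. Counts within each library are given for the main gene lists.

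**Figure D1:**
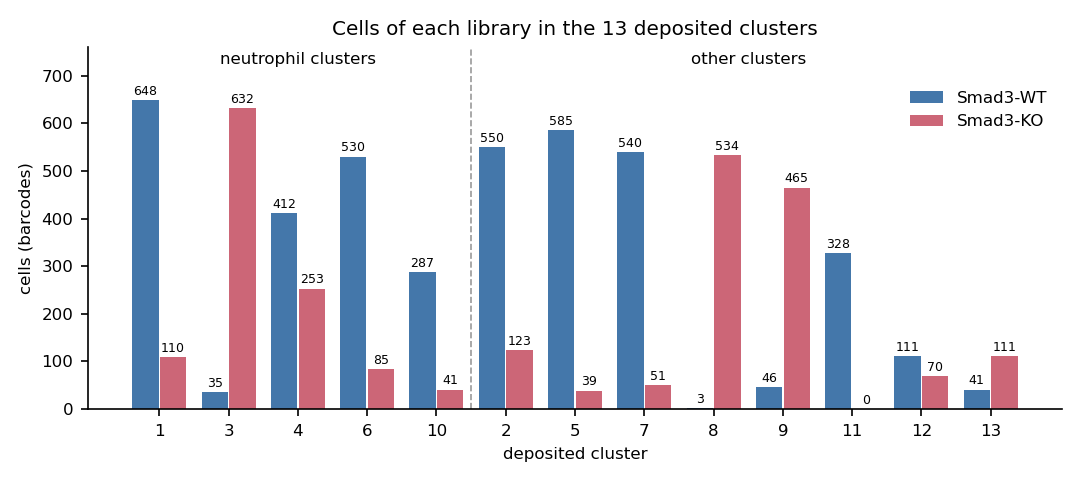
Number of cells (y axis) of the Smad3-WT library (blue) and the Smad3-KO library (red) in each deposited cluster, with the 5 neutrophil clusters left of the dashed line. Cluster 3 held 632 Smad3-KO cells against 35 Smad3-WT cells, and clusters 1, 6 and 10 held mostly Smad3-WT cells.

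The cells were shallow. The median number of unique molecular identifiers (UMIs, each a counted mRNA molecule) per cell was 750 in cluster 1, 1026 in cluster 3, 829 in cluster 4, 738 in cluster 6 and 781 in cluster 10. The 41 Smad3-KO cells of cluster 10 were deeper, with a median of 2090 UMIs against 751 in its 287 Smad3-WT cells. Together the 5 clusters held 3100761 of the 28165690 UMIs in the files. The quality filter of the study (at least 200 genes, under 10% mitochondrial UMIs, more than 500 and fewer than 20000 UMIs) was passed by 2952 of the 3033 cells.

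Several features set the libraries apart before any comparison of clusters. Xist, the RNA of the inactive X chromosome, had 158 UMIs in the Smad3-KO cells of these clusters and 0 in the Smad3-WT cells, while 4 Y-linked genes (Ddx3y, Eif2s3y, Uty and Kdm5d) had 41 UMIs in Smad3-KO cells and 403 in Smad3-WT cells. The sexes of the pooled mice and their genotype cannot be told apart. Smad3 itself had 231 UMIs in Smad3-KO cells and 29 in Smad3-WT cells, or 168 (147 to 191) against 16.8 (11.3 to 24.1) UMIs per 1000000 UMIs of the cells (CPM). Reads of a 5′ kit lie toward the start of a transcript, ahead of the deleted exon, so these UMIs check nothing about genotype, and the genotype labels were not checked by these data. Nos2 (iNOS), the study's N1 stain, had 177 UMIs in Smad3-KO and 6 UMIs in Smad3-WT cells. Mrc1 (CD206), its N2 stain, had 3 and 36 UMIs. Both directions are those the study reports, but as outcomes they do not check the labels. Of 73 barcode sequences found in both libraries, which are 146 barcodes, 15 were in the 5 clusters, 6 of them in cluster 3, 4 each in clusters 4 and 10, 1 in cluster 1 and 0 in cluster 6.

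Of the 5 markers, 4 had a higher average in each of these clusters than in any of the other 8. The markers were given with the clusters, so this describes the clusters and does not test the neutrophil label. S100a8 and S100a9, the subunits of calprotectin and the most abundant markers, had deposited averages (UMIs per cell scaled to the median cell of 1311 UMIs) of 27.2 to 67.9 and 37.6 to 66.1 in the 5 clusters. Their highest averages in the other 8 clusters were 5.56 and 6.75, both in cluster 12, so that the lowest neutrophil cluster exceeded the highest other cluster 4.89-fold and 5.56-fold. Csf3r, the receptor for G-CSF, ranged from 0.941 to 2.50 against at most 0.378 elsewhere, and Cxcr2, the receptor for Cxcl1 and Cxcl2, from 0.258 to 1.46 against at most 0.130.

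Tnf, the cytokine among the markers, did not separate the clusters from the rest. Its average was 1.42 in cluster 3, 0.460 in cluster 4, 0.369 in cluster 10, 0.231 in cluster 1 and 0.161 in cluster 6. Cluster 6 lay beside cluster 12, a cluster outside the 5, at 0.162. In these averages, scaled by total UMIs, Tnf was thus highest in cluster 3, where the other 4 markers had their lowest values of the 5 clusters. Median-of-ratios scaling, described below, raises the levels of cluster 3, and these ranks were not tested with it. The study's methods name Louvain clustering but do not describe these 13 deposited clusters, so these levels are a description and no test was made on them.

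**Figure D2:**
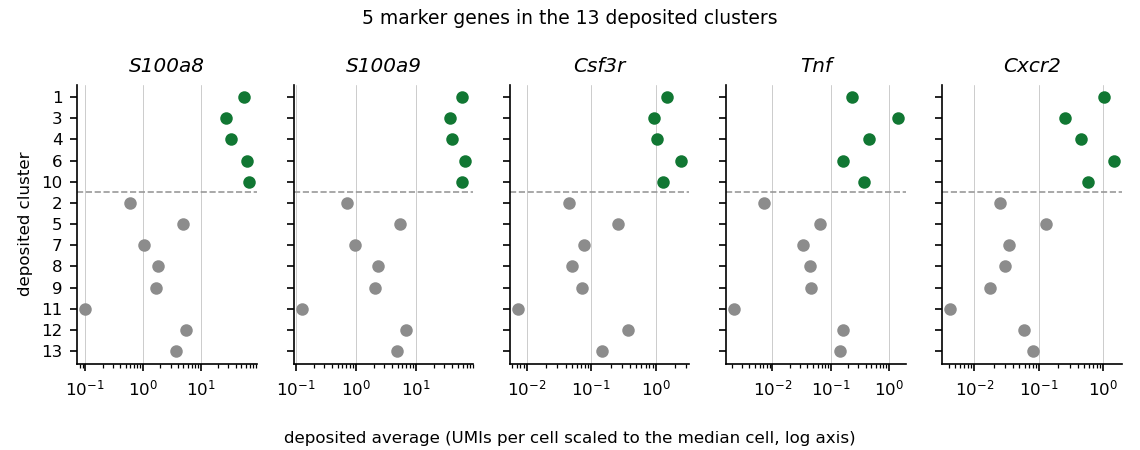
Deposited average of 5 marker genes (x axis, UMIs per cell scaled to the median cell, log scale) in the 13 deposited clusters (y axis), with the 5 neutrophil clusters in green above the dashed line and the other 8 in grey. For S100a8, S100a9, Csf3r and Cxcr2 every green point lies right of every grey point, and for Tnf the point of cluster 6 (0.161) lies beside that of cluster 12 (0.162).

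Shares of cells with a UMI gave the same picture at equal depth. After each cell was thinned to 500 UMIs, S100a8 was found in 74.3% to 98.2% of cells in clusters 1, 3, 4 and 6 of either library, and in 84.7% and 100% of the Smad3-WT and Smad3-KO cells of cluster 10. The share in the B cells of cluster 8, which should lack the gene, was 11.6% of 534 Smad3-KO cells (17.8% before thinning, median depth 1201.5 UMIs), and in the carcinoma cells of cluster 11 it was 2.74% of 328 Smad3-WT cells (18.3% before thinning, median depth 26597.5 UMIs). Thinned Tnf was found in 30.4% of Smad3-KO cells of cluster 3 (44.9% unthinned, median depth 1041 UMIs) against 1.5% in those B cells. In Smad3-WT cells of clusters 1, 4 and 6 the thinned share of Tnf was 5.09%, 5.83% and 3.96%. In those of clusters 3 and 10 it was 20% (8.44% to 36.9%, 35 cells) and 13.6%. In Smad3-KO cells of clusters 1 and 4 it was 10% and 14.4%. In Smad3-KO cells of clusters 6 and 10 it was 2.44% in both, close to the background.

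Markers of other cell types were low but not equal across the 5 clusters. The 10 macrophage and monocyte markers summed to 474 CPM in cluster 1, 255 CPM in cluster 3, 651 CPM in cluster 4, 425 CPM in cluster 6 and 1190 CPM in cluster 10, against 11134 CPM in cluster 7. Ly6c2, a surface protein of monocytes that neutrophils also express, was the most abundant of them in all 5 clusters. Ccr2, the defining monocyte receptor, was at 0 UMIs in cluster 3. The 5 B cell markers summed to 54.0 to 93.8 CPM in clusters 1, 3, 6 and 10, with Ighm the most abundant, and to 2804 CPM in cluster 4. The 6 markers of T or NK cells summed to at most 59.3 CPM, the 5 of carcinoma cells to at most 37.0 CPM, the 5 of fibroblasts to at most 51.9 CPM, the 3 of eosinophils to at most 76.6 CPM, the 3 of endothelium to at most 33.2 CPM and the 6 of dendritic cells to at most 26.0 CPM. All 4 mast cell and basophil markers were at 0 UMIs in the 5 clusters.

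The level of a gene in a cluster was then set against the mean of the other 4 neutrophil clusters, for 6247 genes with at least 20 UMIs in the 5 clusters together. At least 2-fold higher were 61 genes in cluster 1 (0.976%), 455 in cluster 3 (7.28%), 232 in cluster 4 (3.71%), 403 in cluster 6 (6.45%) and 1864 in cluster 10 (29.8%). At least 2-fold lower were 860 genes in cluster 1 (13.8%), 2746 in cluster 3 (44%), 611 in cluster 4 (9.78%), 909 in cluster 6 (14.6%) and 485 in cluster 10 (7.76%). Cluster 1 thus had the fewest higher genes, and in cluster 3 lower genes outnumbered higher ones. Among Smad3-WT cells alone this turned in cluster 3, with 1061 genes higher and 948 lower. Counts were also simulated at the UMI totals of the clusters. Of their unchanged genes, 0.684%, 0.582%, 0.518%, 0.996% and 1.72% were called higher in clusters 1, 3, 4, 6 and 10. Called lower were 4.64%, 4.04%, 4.89%, 5.66% and 7.38%. The 0.976% higher in cluster 1 and the 7.76% lower in cluster 10 lay near these shares. The median log2 difference of all 6247 genes was -0.82 in cluster 3 and 0.55 in cluster 10, and after median-of-ratios scaling it was -0.04 and -0.12. That scaling turned the counts of higher and lower genes to 1131 and 1321 in cluster 3 and to 574 and 1251 in cluster 10. These shifts bear on every value below that is given without that scaling.

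By likeness the clusters fell in the order 6, 1, 4, 3. The correlation of log2(CPM + 10) over the 6247 genes, a description across genes that are not independent, was highest between clusters 1 and 6 (r = 0.949) and next between clusters 1 and 4 (r = 0.931). It was lowest between clusters 3 and 10 (r = 0.748) and then between clusters 3 and 6 (r = 0.808). Genes at least 2-fold apart numbered 1239 between clusters 1 and 6 (19.8%), 1303 between clusters 1 and 4 (20.9%), 1832 between clusters 6 and 10 (29.3%), 2096 between clusters 4 and 6 (33.6%) and 2237 between clusters 3 and 4 (35.8%). They numbered 2397 both between clusters 1 and 10 and between clusters 4 and 10 (38.4% each), 2679 between clusters 1 and 3 (42.9%), 3448 between clusters 3 and 6 (55.2%) and 3953 between clusters 3 and 10 (63.3%). Of the other 8 clusters, cluster 5 was the most like clusters 1, 4, 6 and 10 (r = 0.763, 0.786, 0.741 and 0.850), while for cluster 3 it was cluster 12 (r = 0.653). Cluster 10 was more like each of the other 8 clusters than clusters 1, 3, 4 and 6 were.

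NF-kB genes were highest in cluster 3. Of 19 genes listed as NF-kB subunits, inhibitors and targets, 18 had enough UMIs, and 14 of the 18 were at least 2-fold higher in cluster 3 than in the mean of the other 4, where 7.28% of all genes were. None was 2-fold lower, against 44% of all genes, and 16 had their highest level of the 5 clusters there. The median log2 difference of the list was 1.59 beside -0.82 for all genes. Over all cells of the cluster the list summed to 31090 CPM, against 15917 CPM in cluster 1, 17298 CPM in cluster 4, 13086 CPM in cluster 6 and 9334 CPM in cluster 10.

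Among the inhibitors, Nfkbia (IkB-alpha, which holds NF-kB in the cytoplasm) was at 10100 CPM in cluster 3 and at 1262 to 4390 CPM in the other 4. Tnfaip3 (A20, a ubiquitin-editing enzyme that ends NF-kB signalling) was at 2177 CPM, against 669 CPM in cluster 4 and 116 to 219 CPM in clusters 1, 6 and 10. Tnip1, a partner of A20, was at 536 CPM against 44.8 to 219 CPM. These 3 inhibitors were highest in cluster 3 and next highest in cluster 4. The subunit genes Nfkb1, Nfkb2, Rel and Relb lay between 129 and 220 CPM in cluster 3 and between 37.3 and 104 CPM in the others.

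Among the targets, Icam1, the ligand of the leukocyte integrins and an N1 marker, was at 673 CPM in cluster 3 and 37.3 to 143 CPM elsewhere. Sod2, the mitochondrial superoxide dismutase, was at 2002 CPM against 70.9 to 582 CPM. Traf1, an adaptor of TNF receptors, was at 556 CPM against 24.3 to 133 CPM. Each of these had cluster 4 in second place. The exceptions in the list were Ier3, an early response gene, at 4916 CPM in cluster 3 and 5583 to 9674 CPM in the others, and Nfkbid, a nuclear IkB protein, at 107 CPM against 152 to 211 CPM.

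By the rule on the highest quotient over the next cluster, the genes that led cluster 3 were Saa3 (serum amyloid A3, an acute phase protein), Icam1, Traf1, Malt1 (a scaffold and protease on the path to NF-kB) and Batf (an AP-1 family factor). Saa3 was at 499 CPM, 4.98-fold over cluster 4, and Batf at 422 CPM, 3.68-fold over cluster 4. The lowest were Clec4n (Dectin-2, a receptor for fungal mannans) at 78.0 CPM against 540 to 2173 CPM, Serp1, the ribosomal protein gene Rpl13, Mmp9 (gelatinase B, a granule protease) at 105 CPM against 367 to 1827 CPM, and Ly6e. Clec4n followed the libraries, with 764 CPM in the Smad3-WT and 53.0 CPM in the Smad3-KO cells of cluster 3, and the Smad3-KO cells of cluster 6 were lower still at 27.5 CPM. Ribosomal protein genes took 1.65% of UMIs in cluster 3 and 2.98% to 5.58% in the other clusters, but 3.54% in the Smad3-WT cells of cluster 3, above the 3.04% and 3.47% of Smad3-WT cells in clusters 1 and 6, and 1.58% in its Smad3-KO cells.

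Many but not all cytokine genes were highest in cluster 3. Of 10 measured cytokines, 6 were at least 2-fold higher there (7.28% of all genes) and 3 were 2-fold lower (44%). Tnf was at 1082 CPM (1010.5 to 1158) against 123 to 351 CPM, Il1a, the cell-bound form of interleukin-1, at 1018 CPM against 14.9 to 286 CPM, and Csf3, which encodes G-CSF itself, at 405 CPM against 1.87 to 110 CPM. Il1rn, the interleukin-1 receptor antagonist, was at 8496 CPM against 2465 to 5678 CPM. Il1b, the most abundant cytokine, had its highest level over both libraries in cluster 6 (12129 CPM), followed by cluster 1 (10377 CPM) and cluster 3 (8994 CPM). Among Smad3-KO cells, however, it was lower in cluster 6 than in cluster 1. Osm, Csf1 and Tgfb1 were lowest in cluster 3, at 321, 230 and 97.2 CPM.

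The chemokines of cluster 3 were led by Cxcl2, a ligand of Cxcr2, at 64344 CPM against 17212 to 43501 CPM in the other 4. Of 12 measured chemokines 5 were at least 2-fold higher (7.28% of all genes) and 3 lower (44%), and the median log2 difference turned from -0.32 to 0.32 with median-of-ratios scaling. Ccl3 and Ccl4, which are CC chemokines, were at 14753 and 15484 CPM there and lowest in clusters 6 and 10, at 2986 to 3986 CPM. Of 10 chemotactic receptors, 2 were higher and 5 lower, the latter near the 44% of all genes. Ccrl2, a receptor that binds chemerin, was at 5161 CPM in cluster 3 against 511 to 2193 CPM, and Cxcr2 was at 197 CPM (167 to 231) against 342 to 1114 CPM. Cd274, which encodes the checkpoint ligand PD-L1, was at 3066 CPM in cluster 3, 1253 CPM in cluster 4 and 232 to 483 CPM in the rest. Slpi, an inhibitor of neutrophil elastase, was at 12697 CPM against 1363 to 4985 CPM.

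Within the Smad3-KO library alone, Tnf and most NF-kB genes were higher in cluster 3 than in clusters 1 and 4. Of the 18 NF-kB genes, 11 were at least 2-fold higher in the 632 Smad3-KO cells of cluster 3 than in the 110 of cluster 1, where 17% of all genes were, and 3 were so against the 253 of cluster 4, where 3.58% were, with 17 of 18 in the higher direction. Tnf was at 1106 CPM in Smad3-KO cells of cluster 3, 488 CPM in those of cluster 4 and 266 CPM in those of cluster 1, and the quotient of cluster 3 over cluster 4 was 2.26 (1.92 to 2.68). For Icam1 the quotient was 3.52 (2.73 to 4.59), for Tnfaip3 1.99 (1.78 to 2.22) and for Nfkbia 1.62 (1.54 to 1.70).

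The 35 Smad3-WT cells of cluster 3 shared some of these genes with its Smad3-KO cells and not others. Against the 648 Smad3-WT cells of cluster 1, 6 of 18 NF-kB genes were at least 2-fold higher (20.2% of all genes) and 3 were 2-fold lower (28.9% of all genes). Cd274 was at 2873 CPM in these 35 cells (79 UMIs) and at 3073 CPM in the 632 Smad3-KO cells. Lcn2, an iron-binding granule protein and acute phase gene, was at 546 CPM against 10146 CPM, Tnf at 436 CPM (12 UMIs) against 1106 CPM, and Saa3 at 0 UMIs against 390 UMIs. Thus PD-L1 mRNA was at a like level in both libraries within the cluster while Lcn2, Tnf and Saa3 were higher in its Smad3-KO cells, and the 27496 UMIs of the Smad3-WT cells limited every such value.

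Promoters are shown for 3 abundant NF-kB list genes of cluster 3, since most members of this list were highest in the same cluster, and for Hilpda from the hypoxia list described next. Each line gives the 250 bases before a transcription start, 5′ to 3′ on the strand of the gene, from RefSeq sequence of GRCm38.p6, the assembly that mm10 names. Tnfaip3 and Hilpda had 2 such windows each, 1 of them with a match, and the window with a match is shown. Capitals mark matches, on either strand, to the consensus of NF-kB in Nfkbia (chr12:55492648-55492897, minus strand), Sod2 (chr17:13007589-13007838, plus strand) and Tnfaip3 (chr10:19015411-19015660, minus strand), and to ACGTG or GCGTG, the core of the hypoxia response element, in Hilpda (chr6:29272376-29272625, plus strand).
Nfkbia: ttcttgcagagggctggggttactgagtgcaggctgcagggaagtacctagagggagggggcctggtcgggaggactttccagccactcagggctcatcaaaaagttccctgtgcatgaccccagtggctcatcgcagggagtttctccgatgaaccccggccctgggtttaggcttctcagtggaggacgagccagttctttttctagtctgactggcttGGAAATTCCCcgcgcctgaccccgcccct
Sod2: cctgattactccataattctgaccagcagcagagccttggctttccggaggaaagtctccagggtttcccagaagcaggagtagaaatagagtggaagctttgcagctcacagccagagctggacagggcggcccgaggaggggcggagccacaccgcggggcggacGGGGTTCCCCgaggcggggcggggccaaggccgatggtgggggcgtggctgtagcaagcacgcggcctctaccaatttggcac
Tnfaip3: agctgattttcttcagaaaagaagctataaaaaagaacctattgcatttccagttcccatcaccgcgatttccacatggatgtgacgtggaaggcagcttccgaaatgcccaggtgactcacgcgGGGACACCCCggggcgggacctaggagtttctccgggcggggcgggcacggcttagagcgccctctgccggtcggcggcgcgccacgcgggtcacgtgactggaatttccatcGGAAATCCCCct
Hilpda: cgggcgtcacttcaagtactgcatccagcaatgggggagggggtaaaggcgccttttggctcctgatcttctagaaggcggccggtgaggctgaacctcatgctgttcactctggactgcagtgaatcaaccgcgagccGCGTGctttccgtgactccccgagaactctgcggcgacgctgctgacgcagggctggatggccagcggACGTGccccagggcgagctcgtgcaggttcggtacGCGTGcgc
The NF-kB consensus was found in 1 or more windows of 11 of the 16 list genes with a sequence, and in 8.24% of 27018 genes with one. The capitals begin 29 bases before the start in Nfkbia and 83 bases before it in Sod2, where both strands match the consensus at this position. In Tnfaip3 the first of the capitals begins 125 bases before the start. Icam1, Traf1, Bcl3, Birc3 and Gadd45b had no match in these windows, which says only that these letters were absent there. The hypoxia core was found in 21 of 22 list genes with a sequence and in 41.5% of all genes. A match is a description of sequence and not a measured binding site.

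Hypoxia and glycolysis genes were higher in cluster 3 and lower in clusters 6 and 10. All 24 listed genes were measured, and 9 were at least 2-fold higher in cluster 3 (7.28% of all genes) with 1 lower (44%). In cluster 6, 11 were at least 2-fold lower (14.6%) and 1 higher (6.45%), and in cluster 10, 10 were lower (7.76%) and 0 higher (29.8%). With median-of-ratios scaling 16 were higher in cluster 3 and 22 lower in cluster 10, beside 1131 and 1251 of all 6247 genes. In cluster 4, 0 were at least 2-fold higher or lower, although 21 lay above the mean of the other clusters. Hilpda, a lipid droplet protein induced by hypoxia, had 3030 CPM in cluster 3 and 2188 CPM in cluster 4. Its other levels were 1025, 202 and 356 CPM in clusters 1, 6 and 10. Bnip3, a mitophagy receptor, had the same first 3 places at 938, 809 and 430 CPM. Ero1l, P4ha1 and Pfkfb3, which act in disulfide formation, collagen hydroxylation and glycolytic control, were at 1127, 393 and 677 CPM in cluster 3 and at 149, 35.5 and 76.5 CPM in cluster 6.

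This list crossed the libraries differently from the NF-kB list. Its sum was 33969 CPM in the 35 Smad3-WT cells of cluster 3 against 18247 CPM in its Smad3-KO cells, and 24093 CPM against 13236 CPM in cluster 4. Hilpda was at 9129 CPM (251 UMIs) in the Smad3-WT cells of cluster 3 and at 2808 CPM in the Smad3-KO cells. In cluster 1 the sums were 16314 and 14775 CPM. The NF-kB list summed to 19821 CPM in Smad3-WT and 31501 CPM in Smad3-KO cells of cluster 3, so the 2 lists pointed to opposite libraries there.

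Interferon-stimulated genes separated clusters 1, 3 and 4 from clusters 6 and 10. Of 19 measured, 8 were at least 2-fold higher in cluster 3 (7.28% of all genes) and 0 lower (44%), and 11 were at least 2-fold lower in cluster 6 (14.6%) and 14 in cluster 10 (7.76%). With median-of-ratios scaling these counts were 14, 0, 13 and 17, beside 1131, 1321, 1088 and 1251 of all 6247 genes. Rsad2 (viperin, an antiviral enzyme) was at 2955, 1694 and 1437 CPM in clusters 3, 4 and 1, and at 450 and 380 CPM in clusters 6 and 10. Isg15, a ubiquitin-like modifier, was at 3212, 2543, 2443, 1366 and 743 CPM in the same order. Gbp5, a guanylate-binding protein, was at 216 CPM in cluster 3 and 16.8 to 82.3 CPM in the others. Of 6 MHC class I genes, 2 were at least 2-fold higher in cluster 3 (7.28% of all genes), and 0 of 6 lay above the mean of the other clusters in cluster 1. H2-K1, a classical heavy chain, was at 2452 CPM in cluster 3 against 683 to 1395 CPM and B2m, the light chain, at 2914 CPM against 1390 to 2036 CPM.

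Within a library, the other lists counted for cluster 3 differed from one another. Against cluster 1 among Smad3-KO cells, where 17% of all genes were at least 2-fold higher and 22% lower, 4 of 10 cytokines were higher and 2 lower, 4 of 8 chemokines higher and 1 lower, and 2 of 9 chemotactic receptors higher and 5 lower. There 7 of 24 hypoxia and glycolysis genes were higher and 2 lower, 4 of 19 interferon-stimulated genes higher and 1 lower, 1 of 6 MHC class I genes higher and 0 lower, and 3 of 10 survival genes higher and 0 lower. Against cluster 4 among Smad3-KO cells (3.58% and 22.3% of all genes), 0 interferon, hypoxia and MHC class I genes were 2-fold higher or lower, and 3 of 10 cytokines were higher. Against cluster 4 among Smad3-WT cells (16.2% and 15.8%), 10 of 18 interferon-stimulated genes were higher and 0 lower, 7 of 22 hypoxia and glycolysis genes higher and 1 lower, and 2 of 8 cytokines higher and 2 lower. Against cluster 1 among Smad3-WT cells (20.2% and 28.9%), 11 of 18 interferon-stimulated genes and 10 of 23 hypoxia and glycolysis genes were higher and 0 lower, and 3 of 8 cytokines were higher and 3 lower.

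**Figure D3:**
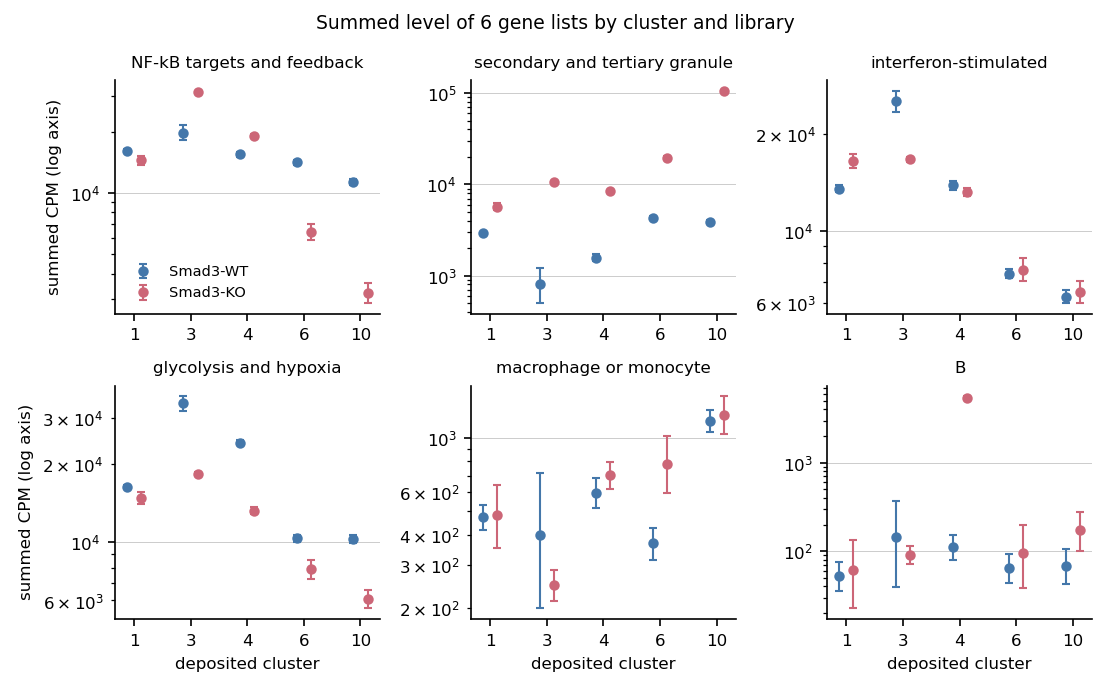
Summed level (y axis, CPM, log scale) of 6 gene lists in each neutrophil cluster (x axis) for Smad3-WT (blue) and Smad3-KO (red) cells, with exact Poisson intervals that cover counting error only. NF-kB genes peak in Smad3-KO cells of cluster 3 (31501 CPM), granule genes in Smad3-KO cells of cluster 10 (104740 CPM) and B cell markers in Smad3-KO cells of cluster 4 (5406 CPM).

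Cluster 6 had the highest level of 7 of 11 neutrophil markers, and 6 were at least 2-fold above the mean of the other clusters (6.45% of all genes), or 4 with median-of-ratios scaling. Against cluster 1, 0 of 11 were at least 2-fold higher or lower in cluster 6 among Smad3-WT cells, and 3 were higher and 2 lower among Smad3-KO cells (12% and 14.3% of all genes). Retnlg, a resistin-like secreted protein of mature neutrophils, led cluster 6 at 4292 CPM against 1270 to 1855 CPM. Csf3r was at 1903 CPM against 718 to 1130 CPM, Cxcr2 at 1114 CPM (1026 to 1207) against 197 to 777 CPM and Il1r2, the decoy receptor of interleukin-1, at 3036 CPM against 730 to 2143 CPM. These 3 receptors were thus highest in this cluster.

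Of 7 integrins, selectins and their partners, 5 were highest in cluster 6, 3 of them at least 2-fold (6.45% of all genes). In cluster 3 all 7 had their lowest level, 4 of them at least 2-fold lower beside 44% of all genes, and 2 with median-of-ratios scaling. Selplg (PSGL-1, the selectin ligand on leukocytes) had a level of 916 CPM in cluster 6 against 142 CPM in cluster 3, and Itgal (a subunit of the integrin LFA-1) was at 213 and 65.2 CPM. Of 16 immediate early genes of the AP-1 group, 11 had their highest level in cluster 6, but 2 were at least 2-fold higher (6.45% of all genes) and 1 lower (14.6%), and with median-of-ratios scaling 1 was higher and 3 lower. Against cluster 1, 0 of 15 were at least 2-fold higher among Smad3-WT cells and 0 of 11 among Smad3-KO cells. Fos and Junb, which form AP-1, were at 3155 and 7636 CPM there and at 1062 and 3244 CPM in cluster 3.

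By the rule on the lowest quotient, 5 genes were named for cluster 6. Hmox1 (heme oxygenase) was at 160 CPM against 321 to 1367 CPM, Npc2 (a lysosomal cholesterol carrier) at 103 CPM against 204 to 422 CPM, and Ctsb (cathepsin B) at 278 CPM against 484 to 1563 CPM. Hilpda was another. Gm3839 also met the rule, at 228 CPM against 403 to 1993 CPM, but its level followed the libraries, as described below.

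Cluster 1 stood next to cluster 6 and had few genes to itself. The quotients over the next cluster for its leading genes were at most 1.48, for Rgcc (a regulator of the cell cycle), followed by Thbs1 (thrombospondin-1, an extracellular matrix protein) at 1.43, Irf7 (a transcription factor of the interferon response) at 1.42, Cxcl3 at 1.39 and Rhoh at 1.38. Cxcl3, a ligand of Cxcr2, was at 18115 CPM in cluster 1 against 5117 to 12996 CPM. Ccl6, a CC chemokine, was at 10255 CPM against 1912 to 7569 CPM. Both Cxcl3 and Ccl6 were lower in Smad3-KO cells, as given below. These cells gave 14.2% of the UMIs of cluster 1 and 50.9% of those of cluster 4. The leads of cluster 1 over cluster 4 for both genes therefore also follow the mix of libraries. Of 12 measured chemokines, 5 were at least 2-fold higher in cluster 1 (0.976% of all genes), of which Cxcl1, Cxcl9 and Ccl5 were below 50 CPM in every cluster.

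Within each library, interferon, hypoxia and chemokine genes were lower in cluster 6 than in cluster 1. Among Smad3-WT cells, 11 of 19 interferon-stimulated genes and 10 of 24 hypoxia and glycolysis genes were at least 2-fold lower in cluster 6 than in cluster 1, where 4.48% of all genes were, and 0 and 1 were higher, beside 7.11% of all genes. Among Smad3-KO cells, 7 of 14 and 9 of 15 were lower, beside 14.3% of all genes. Of chemokines, 7 of 10 were at least 2-fold lower among Smad3-WT cells and 5 of 6 among Smad3-KO cells. Retnlg was 1.63-fold (1.5 to 1.77) higher in cluster 6 than in cluster 1 in Smad3-WT cells and 4.93-fold (4.31 to 5.64) in Smad3-KO cells. The direction was the same in both libraries, and the size was not tested between them.

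**Figure D4:**
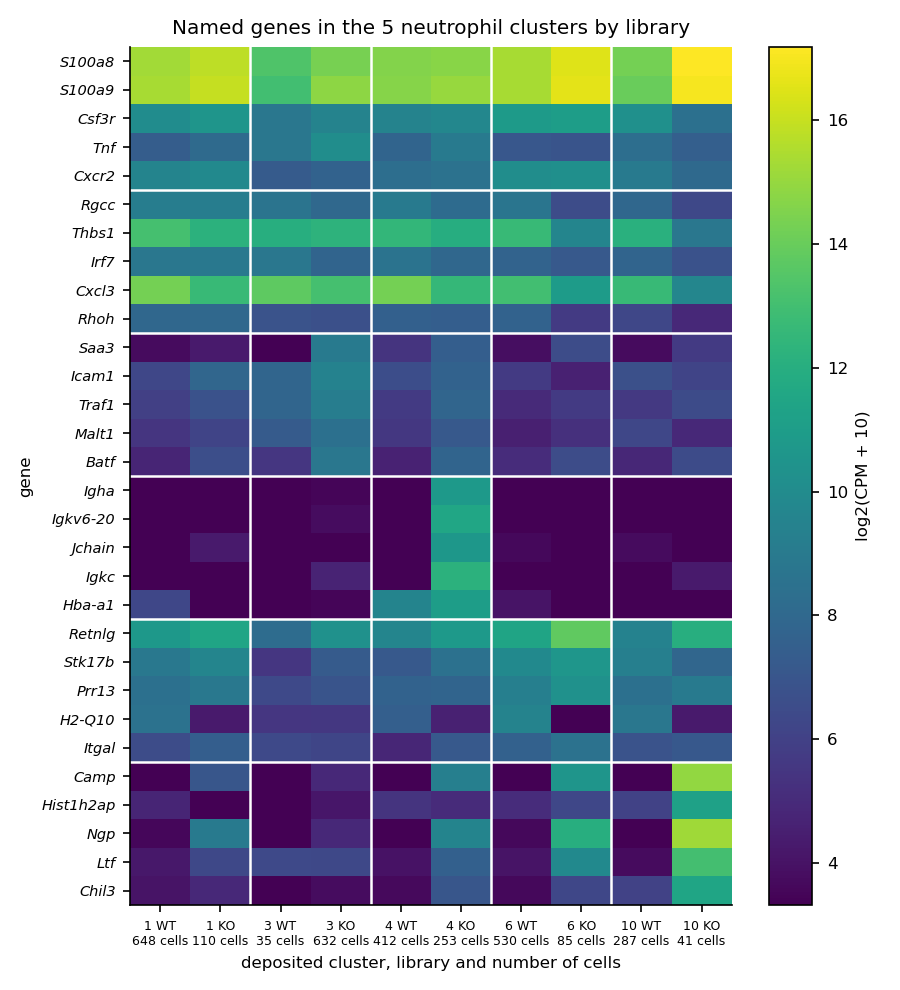
Level of 30 gene entries (rows, log2 of CPM + 10 by color) in the cells of each cluster and library (columns, with the number of cells): the 5 markers, then the 5 leading genes of clusters 1, 3, 4, 6 and 10 in turn. Camp, Ngp, Ltf and Chil3 are brightest in the column of the 41 Smad3-KO cells of cluster 10 and weaker in Smad3-KO cells of clusters 6 and 4, while Igha, Igkv6-20 and Jchain appear in the Smad3-KO column of cluster 4.

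Cluster 4 lay between clusters 1 and 3 and its leading genes came from single barcodes. The median log2 difference of the NF-kB list was -0.06 in cluster 4, and 0 of 18 genes were 2-fold higher or lower. Against cluster 1 within the Smad3-WT library, 7 of 24 hypoxia and glycolysis genes were at least 2-fold higher in cluster 4 (6.29% of all genes) and 0 lower (9.9%), while 0 of 18 NF-kB genes were higher and 2 lower. Within the Smad3-KO library, 7 of 18 NF-kB genes were higher (19% of all genes) and 0 lower (9.77%), while 4 of 22 hypoxia and glycolysis genes were higher and 1 lower. Each list was thus above the share of all genes in 1 of the libraries and not in the other. The 5 leading genes of cluster 4 over both libraries were Igha, Igkv6-20, Jchain, Igkc and Hba-a1, which are genes of antibody-secreting cells and red cells. All 640 UMIs of Igha and all 570 of Jchain, the joining chain of IgA and IgM, were in 1 Smad3-KO barcode, and 1582 of 1670 UMIs of Igkc were in 1 barcode. Of 2328 UMIs of the globin gene Hbb-bs, 1498 were in 1 Smad3-WT barcode and 828 in 1 Smad3-KO barcode.

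Without the 3 barcodes of cluster 4 that held at least 100 UMIs of globin or immunoglobulin genes, the erythroid markers of the cluster summed to 5.87 CPM in place of 5094 CPM. The B cell markers went from 2804 to 523 CPM, and remained at 927 CPM (828 to 1035) in Smad3-KO cells against 112 CPM (79.6 to 154) in Smad3-WT cells. At least 1 UMI of a B cell marker was in 51 of 253 Smad3-KO cells (20.2%, 15.4% to 25.6%) with a median depth of 2135 UMIs, against 977.5 UMIs in the cells with none. In Smad3-WT cells it was in 34 of 412 (8.25%, 5.78% to 11.3%), with medians of 858 and 737.5 UMIs. H2-Aa and Cd74, which serve MHC class II, were at 660 and 1002 CPM in cluster 4, and 435 of the 457 UMIs of H2-Aa were from Smad3-KO cells. Cluster 8, highest in B cell markers at 9156 CPM, held 534 Smad3-KO and 3 Smad3-WT cells. The part of depth and of droplets with a second cell in these values was not tested.

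The mitochondrial share of UMIs was also highest in cluster 4, at 4.29% against 0.430% to 2.93% in the other 4. Among the cells that passed the quality filter it was 1.11%, below cluster 10 at 1.66%. The genes lowest in cluster 4 were Nr4a1, an immediate early nuclear receptor, at 134 CPM against 230 to 437 CPM, Cks2, Tgm2 (a transglutaminase), Slc11a1 (a phagosomal metal transporter) and Bcl2a1b (a survival factor of neutrophils). Their quotients over the next lowest cluster were 0.58 to 0.78.

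Cluster 10 was led by granule genes. Its leading genes were Camp (the precursor of cathelicidin), Hist1h2ap (a histone), Ngp (neutrophilic granule protein), Ltf (lactoferrin) and Chil3 (a chitinase-like protein), all but the histone being proteins of granules or their maturation. Camp was at 7739 CPM (7471 to 8015) in cluster 10 and at 17.5 to 316 CPM in the other 4. Of 12 genes of secondary and tertiary granules, 8 were at least 2-fold higher there (29.8% of all genes) and 0 lower (7.76%). Under median-of-ratios scaling 7 of the 12 were.

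The leading granule genes were in its Smad3-KO cells. Camp had 3134 UMIs in the 41 Smad3-KO cells of cluster 10 and 0 UMIs in the 287 Smad3-WT cells. Ngp had 3723 UMIs and 0 UMIs, Ltf had 822 UMIs and 1 UMI, and Ly6g, the antigen of the sort, 127 UMIs and 2 UMIs. The thinned share of cells with Camp was 78.0% in the Smad3-KO cells (80.5% unthinned) and 0% in the Smad3-WT cells, where 0 of 287 cells allows up to 1.28% of cells with a UMI, which sets no limit on the cells that express the gene. In the B cells of cluster 8 the thinned share was 0.375% (0.749% unthinned). The signal was spread over 33 of the 41 cells, and the barcode with most Camp held 296 UMIs.

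The 41 Smad3-KO cells of cluster 10 had high levels of granule genes. The 12 granule genes summed to 104740 CPM in them, against 19290 CPM in the Smad3-KO cells of cluster 6, 10666 CPM in those of cluster 3, 8415 CPM in those of cluster 4 and 5718 CPM in those of cluster 1. Genes of the primary granules, which are made earliest, were at 101 CPM. Stmn1, a tubulin regulator and the study's marker of immaturity, had 12 UMIs and Top2a, a topoisomerase of dividing cells, 14 UMIs. Hist1h2ap had 244 UMIs in 8 of the 41 cells, 97 of them in 1 cell. Of the 6 cell cycle genes measured over both libraries, 5 were at least 2-fold higher in cluster 10 (29.8% of all genes), but in Smad3-KO cells 1 had enough UMIs to be set against cluster 6, and it was not 2-fold higher. S100a8 and S100a9 were at 149053 and 128588 CPM, Cybb (the catalytic subunit of the NADPH oxidase) at 1555 CPM and Csf3r at 333 CPM, which is the lowest Csf3r level among the 10 sets of cells. Immediate early genes were low, with all 9 that had enough UMIs at least 2-fold below the Smad3-KO cells of cluster 6, where 30.3% of all genes were.

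The 287 Smad3-WT cells of cluster 10 had little granule mRNA and carried markers of mononuclear phagocytes. Their granule list summed to 3854 CPM, of which Mmp9 took 2007 CPM. Their S100a8 and S100a9 levels, 20329 and 16727 CPM, were below those of Smad3-WT cells in clusters 1, 4 and 6 and above those in cluster 3. All 10 macrophage and monocyte markers were higher in them than in the Smad3-WT cells of cluster 6, 7 of them at least 2-fold, where 17.4% of all genes were. Ccr2 was at 177 CPM (54 UMIs) against 6.48 CPM (3 UMIs), a quotient of 27.3 (8.84 to 136). Pf4, a platelet and macrophage chemokine, was 7.80-fold (4.27 to 15.4), Adgre1 (F4/80) 6.56-fold (3.13 to 15.4) and Cd74 6.57-fold (5.18 to 8.40) higher. Siglecf, a lectin of eosinophils, alveolar macrophages and some TANs, was at 94.8 CPM (29 UMIs). C1qa, a defining macrophage gene, reached 68.6 CPM (21 UMIs). The marker sums of the Smad3-WT and Smad3-KO cells of cluster 10 were close, at 1174 and 1242 CPM, but Ly6c2 made up 111 of the 123 UMIs in the Smad3-KO cells, where C1qa and Pf4 were at 0 UMIs. Of 10 neutrophil markers with enough UMIs, 6 were at least 2-fold lower in the Smad3-WT cells of cluster 10 than in those of cluster 6 (3.23% of all genes) and 1 higher. The receptors Csf3r and Cxcr2 had levels of 1216 and 494 CPM in these Smad3-WT cells of cluster 10. The part of other cell types in these values was not tested.

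The remaining gene lists were led by different clusters. Genes of the NADPH oxidase, which makes superoxide, were highest in cluster 10 for 5 of 6, 2 of them at least 2-fold, near the 29.8% of all genes, and 1 of them with median-of-ratios scaling. Of 11 antiproteases, 4 were at least 2-fold higher and 3 lower in cluster 3 (7.28% and 44% of all genes), and 3 higher and 8 lower in cluster 10 (29.8% and 7.76%). Against cluster 1 within a library, 0 were at least 2-fold higher in cluster 3, with 4 of 8 lower among Smad3-WT cells (28.9% of all genes) and 4 of 9 among Smad3-KO cells (22%). Of 13 genes of survival and death, 3 were higher and 1 lower in cluster 3 (7.28% and 44% of all genes), among them the higher Cflar, an inhibitor of death receptors, at 773 CPM against 147 to 336 CPM.

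Genes described for TANs, which include Cd274, Spp1 (osteopontin) and cathepsins, were at least 2-fold higher for 5 of 11 (7.28% of all genes) and lower for 3 (44%) in cluster 3, and lower for 6 in cluster 6 (14.6%). The 3 N1 markers were all highest in cluster 3, 2 of them at least 2-fold. The N2 marker Ccl2 was highest in cluster 10, at 141 CPM. Over both libraries the maturity markers Il1b and Csf3r were highest in cluster 6, and the immaturity markers Stmn1 and Ube2c in cluster 10, at 39.5 and 37.0 CPM. In cluster 6 both maturity markers were above cluster 1 among Smad3-WT cells, but Il1b was below it among Smad3-KO cells. MHC class II genes were highest in cluster 4 for 3 of 4. Globin genes and Alas2 summed to 461 CPM in cluster 1, where 229 of the 237 UMIs of Hbb-bs were in 1 barcode, and to at most 11.2 CPM in clusters 3, 6 and 10.

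Smad3-KO and Smad3-WT cells were compared within clusters 1, 4 and 6, the 3 clusters with at least 50 cells of each library. With a floor of 20 UMIs in the cluster, 273 of 2805 (9.73%) were at least 2-fold higher and 426 (15.2%) lower in Smad3-KO cells in cluster 1. In cluster 4 these were 519 (17.6%) and 272 (9.2%) of 2955, and in cluster 6 they were 308 (11.9%) and 519 (20%) of 2594. The same libraries gave all 3 comparisons, so they do not repeat one another. Smad3-KO cells gave 14.2% of the UMIs of cluster 1 and 13.6% of those of cluster 6. A gene near the floor thus had few Smad3-KO UMIs there and could pass 2-fold by counting error. A higher floor was not tried for these counts. Median-of-ratios scaling lowered the log2 ratios by 0.27, 0.26 and 0.21 in the 3 clusters. With it, lower genes outnumbered higher ones in cluster 4 as well, at 403 against 361.

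Gm3839 and Clec4n differed between the libraries in all 5 clusters. Gm3839, a predicted gene, was at 1650 to 2787 CPM in Smad3-KO cells of the 5 clusters and at 0 to 8.82 CPM in Smad3-WT cells. Clec4n was at 27.5 to 82.0 CPM in Smad3-KO and 764 to 2860 CPM in Smad3-WT cells. H2-Q10, a secreted class I molecule, was at 0 UMIs in the 85 Smad3-KO cells of cluster 6 and 342 UMIs in Smad3-WT cells, at least 17.9-fold lower. Lgals1 (galectin-1) was at 0 UMIs in the 110 Smad3-KO cells of cluster 1 and 123 UMIs in Smad3-WT cells, at least 6.80-fold lower. These genes were named for their ratios between the libraries, and genotype, pool, sex and library cannot be told apart for them.

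Of the granule genes with enough UMIs, 4 of 8 were at least 2-fold higher in Smad3-KO cells in cluster 1 and 1 lower, 6 of 11 in cluster 4 and 7 of 10 in cluster 6 with 0 lower in either, beside 9.73%, 17.6% and 11.9% of all genes higher. The granule list was 1.98-fold (1.79 to 2.17), 5.37-fold (4.90 to 5.90) and 4.47-fold (4.17 to 4.79) higher in clusters 1, 4 and 6 by its sum. Lcn2 was 3.23-fold (2.75 to 3.79), 8.11-fold (7.08 to 9.32) and 8.30-fold (6.93 to 9.94) higher. Ngp and Camp led the ratios of cluster 6, where Camp had 108 UMIs in 11 Smad3-KO cells and 0 UMIs in Smad3-WT cells, at least 229-fold higher. In cluster 4, 133 of the 262 UMIs of Ngp were in 1 barcode. Antiproteases such as Slpi were higher as well, with sums 2.20-fold, 1.78-fold and 2.69-fold above Smad3-WT, and Retnlg was 1.70-fold (1.48 to 1.94), 2.29-fold (1.98 to 2.65) and 5.15-fold (4.74 to 5.59) higher.

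NF-kB genes differed by cluster. In cluster 4, 13 of 18 were at least 2-fold higher in Smad3-KO cells, where 17.6% of all genes were, and 1 lower. In cluster 1, 7 of 18 were higher (9.73% of all genes), and in cluster 6, 2 of 17 were higher, close to the share of all genes (11.9%), and 6 lower (20%). Tnfaip3 was higher in all 3, by 2.12-fold (1.43 to 3.07), 5.81-fold (4.47 to 7.66) and 3.50-fold (1.98 to 6.04). Nfkbia was 1.54-fold (1.37 to 1.72), 2.77-fold (2.55 to 3.0) and 1.11-fold (0.899 to 1.35), the last below 1 with median-of-ratios scaling. The sum of the list was 0.898 of Smad3-WT in cluster 1 and 0.455 in cluster 6, while the median log2 ratios of its genes were 0.61 and 0.12. Ier3, its most abundant gene in Smad3-WT cells, was at 0.50 (0.456 to 0.547) and 0.148 (0.120 to 0.180) of Smad3-WT. With median-of-ratios scaling the median of cluster 6 turned to -0.09.

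The study's N1 markers were compared in the same way. Tnf was 1.65-fold (1.03 to 2.57) higher in Smad3-KO cells of cluster 1, 2.34-fold (1.77 to 3.13) in cluster 4 and 0.878-fold (0.362 to 1.85) in cluster 6. Icam1 was 3.31-fold (1.88 to 5.71) and 2.22-fold (1.43 to 3.53) in clusters 1 and 4, and had 1 UMI against 19 UMIs in cluster 6. Fas, a death receptor, was 0.636-fold (0.385 to 0.999), 1.25-fold (0.944 to 1.66) and 0.470-fold (0.210 to 0.921). Icam1 was thus above Smad3-WT in clusters 1 and 4, and Tnf in cluster 4. The interval of Tnf in cluster 1 includes 1 with median-of-ratios scaling. Counts were too low to place Tnf or Icam1 in cluster 6. Fas went the other way in clusters 1 and 6, with intervals below 1, and its interval in cluster 4 includes 1.

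Of the N2 markers, Ccl2, a monocyte chemoattractant, had 0 UMIs in Smad3-KO cells against 50 UMIs in Smad3-WT cells in cluster 1, and 10 against 53 UMIs in cluster 4, a ratio of 0.182 (0.0827 to 0.362). It is also a macrophage gene, and Smad3-WT cells of cluster 10, where Ccr2, Pf4 and C1qa were also found, held 57 UMIs of it against 0 in its Smad3-KO cells. Of the maturity markers, Il1b was 1.58-fold (1.49 to 1.67) and 2.17-fold (2.04 to 2.31) higher in clusters 1 and 4 and 0.744-fold (0.686 to 0.806) in cluster 6, while Csf3r was 1.42-fold (1.18 to 1.70), 1.16-fold (0.974 to 1.37) and 1.12-fold (0.932 to 1.33), the last 2 with intervals that include 1 and below 1 with median-of-ratios scaling.

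Chemokines were lower in Smad3-KO cells in the 3 clusters by their sum, at 0.636, 0.677 and 0.421 of Smad3-WT. Cxcl3 was at 0.325 (0.300 to 0.352), 0.300 (0.285 to 0.315) and 0.243 (0.204 to 0.288) of its Smad3-WT level and Ccl6 at 0.225, 0.195 and 0.355. Cxcl2 differed less, at 0.993 (0.960 to 1.03), 0.979 (0.957 to 1.0) and 0.554 (0.520 to 0.590). Hypoxia and glycolysis genes were at 0.549 (0.530 to 0.570) of Smad3-WT in cluster 4, with 8 of 24 at least 2-fold lower (9.2% of all genes) and 1 higher (17.6%). In clusters 1 and 6 their sums were at 0.906 and 0.761 of Smad3-WT, and the median log2 ratio in cluster 1 was 0.05, which turned to -0.22 with median-of-ratios scaling. Jun, a component of AP-1, was at 0.300, 0.214 and 0.0179 of Smad3-WT, with 1 UMI in Smad3-KO cells of cluster 6. MHC class I genes were higher, at 1.72, 2.07 and 1.25 times Smad3-WT by their sum.

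Some list sums changed side of 1 with the scaling. The 11 neutrophil markers were at 1.17 times Smad3-WT in cluster 4 and at 0.977 with median-of-ratios scaling, and cytokines at 1.12 and 0.933 in cluster 1. In cluster 4 the sum of cytokines was at 1.23 and 1.03, while the median log2 ratio of these genes was -0.49 before that scaling. Chemotactic receptors were at 1.13 and 0.939 in cluster 1 and at 1.11 and 0.928 in cluster 4, and adhesion genes at 1.11 and 0.919 and at 1.08 and 0.901. In cluster 1 the sum of survival genes was at 1.07 and 0.885 and that of the NADPH oxidase at 1.09 and 0.908. Macrophage markers were at 1.02 and 0.845 in cluster 1 and at 1.18 and 0.989 in cluster 4. Interferon-stimulated genes were at 1.03 and 0.889 in cluster 6. The genes of the TAN list were below Smad3-WT by their sum, at 0.514, 0.527 and 0.282 in clusters 1, 4 and 6.

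**Figure D5:**
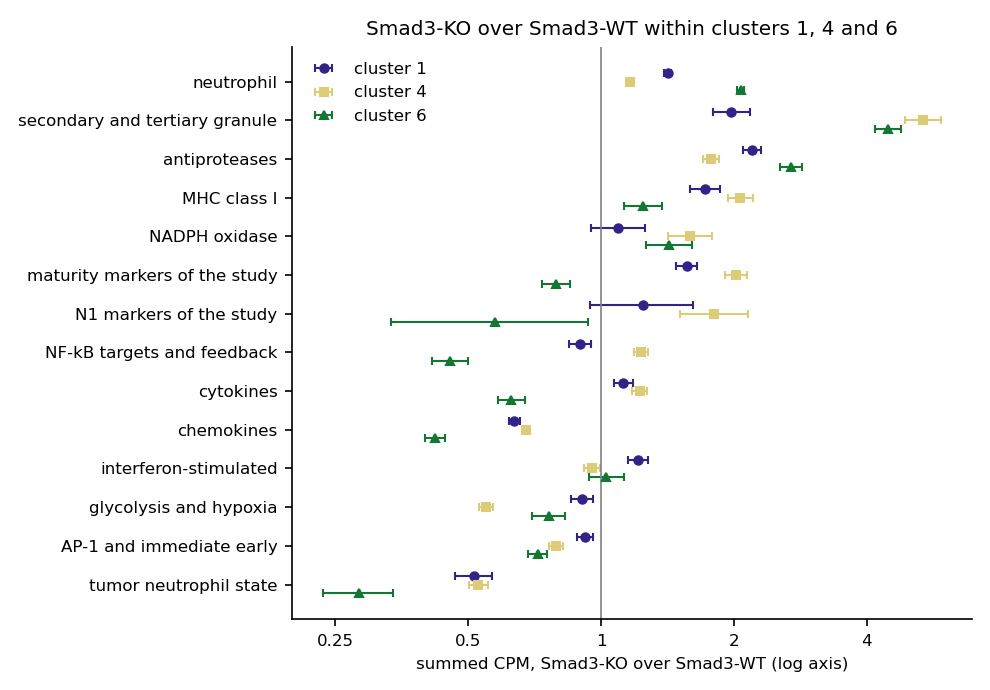
Ratio of the summed CPM of 14 gene lists in Smad3-KO over Smad3-WT cells (x axis, log scale) within clusters 1 (circles), 4 (squares) and 6 (triangles), with exact intervals for counting error. Granule genes and antiproteases lie right of 1 in all 3 clusters, chemokines left of 1, and NF-kB, cytokine and maturity lists lie on different sides of 1 in clusters 4 and 6.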

How the data were processed

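The authors deposited 1 matrix of raw UMI counts for both libraries, made with Cell Ranger 3.0.2 and mm10 (per the file headers, the labels and the submitters' processing notes), of barcodes called as cells. The averages the authors deposited are a signal per gene for 13 clusters and for each genotype. The study's methods name the Cell Ranger pipeline and Louvain modularity optimization but do not describe these 13 clusters. Their log2 fold changes and p-values compare clusters or genotypes and were not used.

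All 248482 deposited values were whole multiples of 1 UMI in their column (100% within a tolerance of 1e-06), and the recovered UMIs summed to the matrix for all 19114 genes. All 6630 barcodes were placed by elimination in the 1 cluster that these sums allowed, after which the sums equalled all 248482 values. The suffix of a barcode was matched to a genotype by the deposited averages, with largest differences of 3.58e-08 (Smad3-WT) and 4.91e-09 (Smad3-KO).

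UMIs were summed over cells and divided by their total (CPM). Log2 differences used 0.5 added UMIs and genes with at least 20 UMIs. Intervals are exact (Poisson, Clopper-Pearson, or conditional for ratios), and a fold against 0 used 3 UMIs. With 1 library per genotype, no count test was run and none could call a gene. No doublet caller was run. Named were the 5 markers, the 5 highest and 5 lowest genes per cluster (at least 200 CPM), the 5 highest and 5 lowest genotype ratios (at least 100 UMIs) and members of lists. Xist, the Y-linked genes, Smad3 and the globin and immunoglobulin barcodes fall outside this rule and were chosen after their values were seen. The members, lists and rule were chosen with earlier results of these data known. Lists cover markers of 11 cell types, granules, the cell cycle, NF-kB, N1, N2, maturity, cytokines, chemokines and their receptors, interferon, hypoxia, survival, AP-1, TANs, MHC, NADPH oxidase, adhesion and antiproteases. Some members of these lists are not reported here by name. Scripts were tested on simulated data. Analysis ran in Python 3.11.15 with scipy 1.17.1 for intervals, pandas 2.3.3 for tables, numpy 2.4.6 for sums and matplotlib 3.10.9 for plots.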

Additional observations from a re-analysis of the deposited data

Results flagged for a closer look

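One gene among the markers and the genes named within clusters had Smad3-KO over Smad3-WT ratios with intervals on opposite sides of 1 in different clusters. This was Il1b, which encodes the cytokine interleukin-1 beta. Its ratio was 1.58 (1.49 to 1.67) in cluster 1, 2.17 (2.04 to 2.31) in cluster 4 and 0.744 (0.686 to 0.806) in cluster 6. The difference between clusters was not tested, since each genotype had 1 library.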

How the results depend on the processing

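Of 231 alternative values of 31 results under 12 settings, 155 stayed within 1.5 times the reported value (or within its interval) and 76 moved. Cells passing the quality filter (31 values), means over cells (26), totals that leave out mitochondrial genes and those of ribosomal proteins (26), and leaving out barcodes shared between libraries (21) or rich in globin or immunoglobulin UMIs (16) moved none. Counts below are for clusters 1, 3, 4, 6 and 10 in turn, then for pairs 1-3, 1-4, 1-6, 1-10, 3-4, 3-6, 3-10, 4-6, 4-10 and 6-10, all at least 2-fold. With at least 100 UMIs (2757 genes), 10, 290, 55, 167 and 409 genes were higher, 154, 929, 168, 325 and 302 lower, and 1073, 332, 291, 661, 676, 1454, 1538, 846, 865 and 458 apart. With no filter (13283 genes), 650, 1049, 1680, 1189 and 4811 were higher, 3759, 6657, 2460, 2868 and 873 lower, and 6087, 5066, 4415, 5682, 6315, 7056, 7597, 6007, 5424 and 5565 apart. The number of genes tested also differs between these settings, and the cause of these moves was not tested. Median-of-ratios scaling gave 108, 1131 and 574 higher in clusters 1, 3 and 10, 1321 and 1251 lower in clusters 3 and 10, and 139 and 198 higher in Smad3-KO cells of clusters 1 and 6. With 5 UMIs added, 14, 92 and 212 were higher in clusters 1, 4 and 6, 421, 310, 392 and 238 lower in clusters 1, 4, 6 and 10, and 1762, 568, 510, 1362, 1321 and 1159 apart for pairs 1-3, 1-4, 1-6, 3-4, 4-6 and 6-10. Among Smad3-WT cells alone (5003 genes), 19, 1061, 58 and 1117 were higher in clusters 1, 3, 4 and 10, and 948 and 1321 lower in clusters 3 and 4. Among Smad3-KO cells alone (4049 genes), 296, 358, 664 and 594 were higher in clusters 1, 4, 6 and 10, and 1400, 377 and 1230 lower in clusters 3, 4 and 10. For these scaling, pseudocount and library settings the cause was not tested. By UMIs in place of cells, the Smad3-KO library gave 96.5%, 50.9% and 24.5% of clusters 3, 4 and 10.

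The settings on single libraries, shared barcodes and rich barcodes were chosen after seeing the data. No paired analysis was possible because each genotype had 1 library. With a median of 844 UMIs per cell, genes with few UMIs could not be placed, above all in the 35 Smad3-WT cells of cluster 3 and the 41 Smad3-KO cells of cluster 10, and genotype, sex and library cannot be told apart.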
